A study of Mus musculus with 20 samples.

Results

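A set of 9 genes that lie away from *Slc5a2* was followed in kidney cortex RNA of mice with and without a working *Slc5a2* gene: *Chl1*, *Prok1*, *Gpc1*, *Pigz*, *B3galnt1*, *Fxyd5*, *Reep6*, *Triqk* and *Mpped1*. They were chosen for a difference between SP and WT libraries in at least 1 treatment, so their differences between genotypes are given as a description and no p is given for them. All 9 were among the 16152 genes that had enough counts to be tested, out of 43430 genes counted. The mice were male C3H/HeJ animals, a strain whose *Tlr4* is defective in every group, and were 10 weeks old when the high-fat diet (HFD) began. WT mice carried intact *Slc5a2*, and SP (Sweet Pee) mice were homozygous for a missense mutation of it that is present in all cells. After 8 weeks on HFD both genotypes received either placebo (DMSO) or the methionine adenosyltransferase inhibitor MAT2Ai at 10 mg/kg by intraperitoneal injection 3 times per week for 8 weeks while on HFD. This gave WT placebo, WT MAT2Ai, SP placebo and SP MAT2Ai, with 5 libraries each, numbered as in the labels. Nothing in the labels says more about where the replicates came from, so p values measure the spread between these libraries.

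*Slc5a2* encodes SGLT2, the carrier that takes up most filtered glucose in the early proximal tubule. MAT2A makes S-adenosylmethionine, the donor for most methylation reactions in the cell. The 9 genes belong to no single pathway. *Chl1* codes for a neural adhesion molecule related to L1, *Prok1* for the secreted ligand prokineticin 1, and *Gpc1* for glypican-1, a heparan sulfate proteoglycan held in the membrane by a glycosylphosphatidylinositol (GPI) anchor. *Pigz* codes for the mannosyltransferase that adds a side mannose to GPI anchors, and *B3galnt1* for the enzyme that completes globoside, a glycolipid of the kidney. *Fxyd5* codes for dysadherin, a regulator of the Na,K-ATPase, *Reep6* and *Triqk* for membrane proteins of the endoplasmic reticulum (ER), and *Mpped1* for a protein with a metallophosphoesterase domain.

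On mm10 the genes lie on 8 chromosomes. *Chl1* (ENSMUSG00000030077) is on the plus strand at chr6:103510586-103750211, *Gpc1* (ENSMUSG00000034220) at chr1:92831645-92860779, *Reep6* (ENSMUSG00000035504) at chr10:80329953-80336441, *Pigz* (ENSMUSG00000045625) at chr16:31933851-31946046, *Triqk* (ENSMUSG00000055963) at chr4:12906838-12983553 and *Mpped1* (ENSMUSG00000041708) at chr15:83779467-83858494, also on the plus strand. *Prok1* (ENSMUSG00000070368, chr3:107232797-107239707), *B3galnt1* (ENSMUSG00000043300, chr3:69574158-69598960) and *Fxyd5* (ENSMUSG00000009687, chr7:31032722-31042481) are on the minus strand. Only *Fxyd5* shares chromosome 7 with *Slc5a2* (chr7:128265657-128272430), at a distance of 97.2 Mb. All 9 are protein coding. The annotated genes that overlap them had no count in any library, except *Ankmy1* on the strand opposite to *Gpc1*, which had 104 counts over all 20 libraries against 32951 for *Gpc1*.

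Promoter sequence was at hand for 6 of the 9 in the RefSeq table (GRCm38.p6). *Gpc1*, *Reep6* and *Triqk* had none there. The 250 bases before the start are shown for *Chl1* and *Pigz*, the members with the highest and the lowest fitted log2 fold change of SP over WT averaged over treatments, for the promoter of *Prok1* that holds a TATA box, and for the CpG-rich promoter of *Mpped1*. The start is that of RefSeq, which for *Chl1* and *Mpped1* lies inside the gene as GENCODE places it above. Each sequence runs 5′ to 3′ on the strand of its gene, and capitals mark the motifs that were found.
Chl1, chr6:103510626-103510875, plus strand: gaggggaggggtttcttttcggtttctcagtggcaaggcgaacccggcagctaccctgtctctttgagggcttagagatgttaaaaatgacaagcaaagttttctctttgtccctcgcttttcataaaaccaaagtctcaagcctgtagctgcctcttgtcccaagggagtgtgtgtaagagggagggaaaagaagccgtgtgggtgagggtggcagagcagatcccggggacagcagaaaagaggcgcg
Pigz, chr16:31933601-31933850, plus strand: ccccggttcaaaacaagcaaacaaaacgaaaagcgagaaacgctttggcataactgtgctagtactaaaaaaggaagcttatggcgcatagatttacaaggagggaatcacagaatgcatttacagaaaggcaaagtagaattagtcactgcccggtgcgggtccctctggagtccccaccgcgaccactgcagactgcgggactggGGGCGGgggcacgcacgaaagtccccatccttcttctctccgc
Prok1, chr3:107239708-107239957, minus strand: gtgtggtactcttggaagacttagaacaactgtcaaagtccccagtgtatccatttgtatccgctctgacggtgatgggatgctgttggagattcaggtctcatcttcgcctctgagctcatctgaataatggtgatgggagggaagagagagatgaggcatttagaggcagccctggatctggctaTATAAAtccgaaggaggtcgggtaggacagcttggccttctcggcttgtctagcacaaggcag
Mpped1, chr15:83779773-83780022, plus strand: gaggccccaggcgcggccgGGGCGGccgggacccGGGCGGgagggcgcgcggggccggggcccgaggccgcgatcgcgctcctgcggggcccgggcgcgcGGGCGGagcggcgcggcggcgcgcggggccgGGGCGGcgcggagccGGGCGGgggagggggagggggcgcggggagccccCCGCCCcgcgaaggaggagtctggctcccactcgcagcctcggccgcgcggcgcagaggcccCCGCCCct
The search covered both strands, and no matches overlapped in the sequences shown.

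These promoters had little in common. Among all 32851 mouse promoters of this length, 12.4% hold a TATA box (the letters TATAAA), 32.7% a GC box (GGGCGG) and 33.8% a CCAAT box. An E-box (CACGTG) occurs in 6.02%, an AP-1 site (TGANTCA) in 6.75% and an HNF1 half-site (GTTAAT) in 6.43%. The *Prok1* promoter shown held 1 TATA box, its other annotated promoter none, and *Chl1* and *Fxyd5* had no match to any of the 6 motifs. *Pigz* and *B3galnt1* held 1 GC box each, while the *Mpped1* promoter shown held 7 GC boxes and 47 CpG dinucleotides, at the 99.8th percentile of all promoters, with a GC content of 88.8% against a median of 52.4%. The second *Mpped1* promoter held 2 CpG dinucleotides and no motif. A match is only a run of letters, and no binding was measured here.

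Gene counts ran from 53296824 to 79339949 per library. *Slc5a2* was read first, in CPM (counts scaled to library size with TMM factors). It stood at 371, 518, 380, 405 and 448 CPM in WT placebo 1 to 5 and at 415, 229, 390, 325 and 385 CPM in WT MAT2Ai. In SP MAT2Ai it stood at 72.6, 47.0, 43.5, 85.9 and 60.0 CPM. In SP placebo it stood at 241, 282, 70.1, 40.2 and 56.7 CPM. The libraries labelled SP placebo 1 and 2 thus lay above the other 8 SP libraries and below all WT placebo libraries, though above WT MAT2Ai 2. Both libraries were kept as labelled, since this level does not show which genotype they carry. Fitted values under placebo are given with and without them. Calls lost through their removal are named for neighbours, family genes and *B3galnt1*, and calls of members between genotypes are given as counts. On principal component 1, with 20.5% of the variance, WT MAT2Ai 2 stood at 89.7 and WT MAT2Ai 3 and 4 at 21.8 and 19.4, while the others ran from −22.9 to 6.0. The summed level of 5 tubular injury markers ran from 284 to 7055 CPM in WT MAT2Ai and reached 408 CPM at most in the other groups. The proximal tubule markers that define cortex were all present, at a summed 6644 to 11336 CPM for segments S1 and S2, and adrenal cortex markers summed to 0.887 CPM at most. In bulk RNA, fewer cells of a type and less RNA per cell cannot be told apart.

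Levels differed widely between the members. Per kilobase of exon, averaged over the 20 libraries, *Mpped1* was the most abundant at 7.06 CPM per kb, the 70.0th percentile of tested genes, followed by *Reep6* at 6.42, *Gpc1* at 4.92 and *B3galnt1* at 4.11 CPM per kb. *Fxyd5* (1.51), *Triqk* (1.31), *Pigz* (0.764) and *Prok1* (0.647 CPM per kb) were lower. *Chl1* was the least abundant at 0.119 CPM per kb, the 9.20th percentile, and its counts per library ran from 33 to 166. The depth behind *Prok1* was 34 to 212 counts per library and behind *Pigz* 69 to 272. All other members had at least 211 counts in every library.

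**Figure D1:**
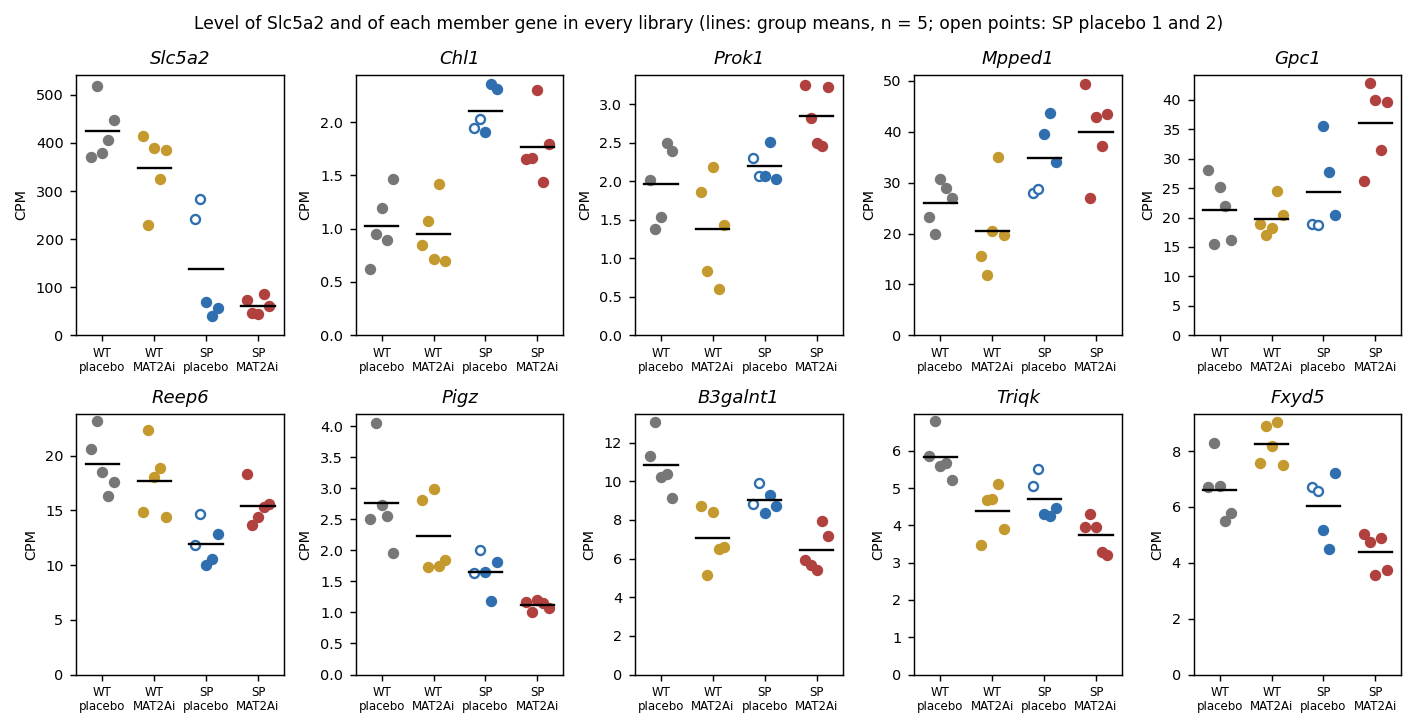
Level of *Slc5a2* and of the 9 genes in CPM (y axes start at 0 and differ) in every library, by group, with the group mean as a line (n = 5) and the libraries labelled SP placebo 1 and 2 as open points. *Chl1* lies at 1.44 to 2.36 CPM in all SP libraries and at 0.626 to 1.47 CPM in all WT libraries. By their means *B3galnt1*, *Triqk*, *Pigz*, *Chl1* and *Slc5a2* are lower in both MAT2Ai groups than in the placebo group of the same genotype.

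The first comparison asked how the cell surface and secreted members stood in SP against WT kidneys. *Chl1* was about as much higher in SP under placebo as under MAT2Ai. *Prok1* and *Gpc1* were higher in SP under MAT2Ai, and under placebo their groups overlapped.

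*Chl1* stood at 0.626, 0.952, 1.20, 0.898 and 1.47 CPM in WT placebo and at 1.95, 2.03, 1.91, 2.36 and 2.31 CPM in SP placebo. Under MAT2Ai it stood at 0.851, 1.07, 0.720, 1.42 and 0.696 CPM in WT and at 1.66, 1.67, 2.30, 1.44 and 1.79 CPM in SP. The groups did not overlap within either treatment, and over both treatments only SP MAT2Ai 4 (1.44 CPM) fell below the highest WT library (1.47 CPM). The log2 fold change of SP over WT was 1.03 ± 0.22 (SE) under placebo and 0.90 ± 0.22 under MAT2Ai. SP placebo 1 and 2, whose *Slc5a2* was high, held 1.95 and 2.03 CPM of *Chl1*, inside the range of SP placebo 3 to 5 (1.91 to 2.36 CPM) and outside that of WT placebo. Without them the log2 fold change under placebo was 1.08 ± 0.26.

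*Prok1* stood at 2.01, 1.38, 1.54, 2.49 and 2.39 CPM in WT placebo and at 2.30, 2.07, 2.06, 2.51 and 2.03 CPM in SP placebo, which overlapped throughout. With MAT2Ai the levels were 1.86, 0.839, 2.19, 0.604 and 1.43 CPM in WT and 3.25, 2.82, 2.50, 2.46 and 3.22 CPM in SP. All SP MAT2Ai libraries were above all WT MAT2Ai libraries, of which WT MAT2Ai 2 and 4 were the lowest. SP exceeded WT by 0.16 ± 0.26 on the log2 scale under placebo and by 1.04 ± 0.26 under MAT2Ai, or 2.05-fold. The placebo value was 0.16 ± 0.31 without SP placebo 1 and 2, and the MAT2Ai value 0.79 ± 0.23 without WT MAT2Ai 2, 3 and 4. The 7 markers of proximal tubule segments S1 and S2 summed to 6644 to 10233 CPM in WT MAT2Ai and to 9118 to 10655 CPM in SP MAT2Ai. Of the 7, 1 was higher in SP under MAT2Ai at an adjusted p under 0.05 (edgeR), none was at 0, and their part in the *Prok1* difference was not tested.

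*Gpc1* stood at 28.0, 15.4, 25.1, 22.0 and 16.2 CPM in WT placebo and at 19.0, 18.8, 35.5, 27.8 and 20.4 CPM in SP placebo. Under MAT2Ai the levels were 18.9, 17.0, 18.2, 24.5 and 20.5 CPM in WT and 26.1, 42.9, 40.0, 31.5 and 39.7 CPM in SP. The MAT2Ai groups did not overlap, with SP MAT2Ai 1 closest to WT. SP exceeded WT by 0.19 ± 0.19 (log2) under placebo and by 0.87 ± 0.19 under MAT2Ai. SP placebo 1 and 2 were the lowest of their group and, like SP placebo 4 and 5, lay inside the WT placebo range. Without SP placebo 1 and 2 the placebo value was 0.38 ± 0.21.

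Of the enzymes of glycan synthesis, *Pigz* was lower in SP in both treatments. *B3galnt1* overlapped between genotypes in both and differed by more between treatments.

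*Pigz* stood at 2.50, 4.05, 2.73, 2.56 and 1.95 CPM in WT placebo and at 1.63, 2.01, 1.66, 1.18 and 1.81 CPM in SP placebo. With MAT2Ai it stood at 2.81, 1.74, 2.99, 1.74 and 1.84 CPM in WT and at 1.17, 1.01, 1.20, 1.16 and 1.06 CPM in SP. Under placebo only SP placebo 2 rose above the lowest WT library, and under MAT2Ai the groups did not overlap and the SP libraries were the closest together of the 4 groups (1.12 ± 0.0806 CPM, mean ± SD, n = 5). The log2 fold change was −0.74 ± 0.20 under placebo and −0.99 ± 0.20 under MAT2Ai, or 1.99-fold lower. Without SP placebo 1 and 2 the placebo value was −0.84 ± 0.24.

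*B3galnt1* stood at 11.3, 13.1, 10.2, 10.4 and 9.11 CPM in WT placebo and at 8.84, 9.90, 8.36, 9.30 and 8.72 CPM in SP placebo. Under MAT2Ai it stood at 8.69, 5.14, 8.44, 6.52 and 6.61 CPM in WT and at 5.93, 5.67, 5.43, 7.96 and 7.18 CPM in SP. The genotypes overlapped in both treatments, with log2 fold changes of −0.26 ± 0.14 under placebo (−0.31 ± 0.16 without SP placebo 1 and 2) and −0.14 ± 0.14 under MAT2Ai. Each MAT2Ai group lay below the placebo group of its genotype without overlap, a pattern that was not counted over all genes. With the genotypes pooled, the MAT2Ai and placebo libraries overlapped.

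Among the membrane regulators and ER proteins, *Fxyd5* was lower in SP under MAT2Ai, *Reep6* was lower in SP under placebo, and *Triqk* overlapped between genotypes in both treatments.

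*Fxyd5* stood at 6.71, 8.29, 6.76, 5.49 and 5.80 CPM in WT placebo and at 6.71, 6.58, 5.17, 4.49 and 7.20 CPM in SP placebo. With MAT2Ai the levels were 7.57, 8.90, 8.18, 9.06 and 7.50 CPM in WT and 5.04, 4.73, 3.57, 4.90 and 3.74 CPM in SP. The MAT2Ai groups were well apart and the placebo groups overlapped. The log2 fold change was −0.13 ± 0.14 under placebo, −0.24 ± 0.16 without SP placebo 1 and 2, and −0.91 ± 0.14 under MAT2Ai, or 1.87-fold lower. The 5 macrophage markers, C1q chains, *Cd68* and *Adgre1*, were as a sum also lower in SP under MAT2Ai. They summed to 21.2 to 34.1 CPM in WT placebo, 25.1 to 33.5 in WT MAT2Ai, 13.0 to 27.1 in SP placebo and 9.15 to 19.8 CPM in SP MAT2Ai. Of the 5, 3 were lower in SP than WT under MAT2Ai at an adjusted p under 0.05 (edgeR) and none was at 0 in any library. The 5 lymphocyte markers summed to 5.96 to 17.6 CPM in WT MAT2Ai and to 2.81 to 5.94 CPM in SP MAT2Ai, and none of them passed between genotypes. The part of either list in the *Fxyd5* difference was not tested.

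*Reep6* stood at 20.6, 23.2, 18.5, 16.3 and 17.6 CPM in WT placebo and at 11.8, 14.6, 10.0, 10.5 and 12.8 CPM in SP placebo. Under MAT2Ai the levels were 14.9, 22.4, 18.0, 18.9 and 14.4 CPM in WT and 18.3, 13.6, 14.4, 15.3 and 15.6 CPM in SP. The placebo groups did not overlap, SP placebo 1 and 2 included, whereas the MAT2Ai groups did. Fitted log2 fold changes were −0.69 ± 0.13 under placebo, −0.80 ± 0.15 without SP placebo 1 and 2, and −0.20 ± 0.13 under MAT2Ai. Without WT MAT2Ai 2, 3 and 4 the MAT2Ai value was 0.08 ± 0.15.

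*Triqk* stood at 5.86, 6.81, 5.59, 5.67 and 5.22 CPM in WT placebo and at 5.05, 5.51, 4.31, 4.25 and 4.46 CPM in SP placebo. With MAT2Ai it stood at 3.47, 4.69, 4.71, 5.11 and 3.90 CPM in WT and at 3.95, 4.31, 3.95, 3.29 and 3.21 CPM in SP. SP placebo 2 was the only SP placebo library inside the WT placebo range, and the MAT2Ai groups overlapped. The log2 fold change was −0.31 ± 0.12 under placebo, −0.43 ± 0.14 without SP placebo 1 and 2, and −0.23 ± 0.12 under MAT2Ai, where it became 0.02 ± 0.15 without WT MAT2Ai 2, 3 and 4.

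*Mpped1*, the most abundant member, stood at 23.3, 19.8, 30.7, 29.0 and 27.0 CPM in WT placebo and at 28.0, 28.7, 39.6, 43.6 and 34.0 CPM in SP placebo. Under MAT2Ai it stood at 15.5, 11.8, 20.5, 35.0 and 19.7 CPM in WT and at 49.4, 26.9, 42.9, 37.2 and 43.6 CPM in SP. Of the WT MAT2Ai libraries only replicate 4 reached into the SP MAT2Ai range, and of the SP placebo libraries only replicates 1 and 2 lay inside the WT placebo range. SP exceeded WT by 0.42 ± 0.22 (log2) under placebo, 0.58 ± 0.25 without SP placebo 1 and 2, and 0.97 ± 0.22 under MAT2Ai. The 5 markers of proximal tubule segment S3 summed to 2188 to 2650 CPM in WT placebo, 1327 to 2559 in WT MAT2Ai, 2386 to 3205 in SP placebo and 2421 to 2904 CPM in SP MAT2Ai. None of the 5 passed between genotypes, none was at 0, and their part in the *Mpped1* difference was not tested.

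**Figure D2:**
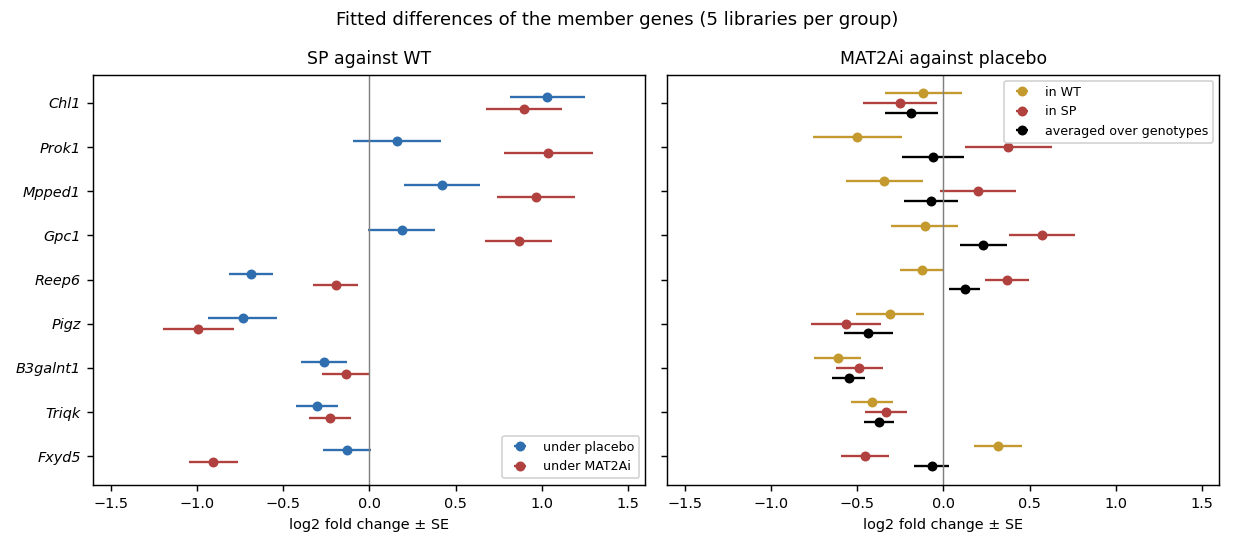
Fitted log2 fold changes ± SE (edgeR, 20 libraries) of SP against WT under each treatment (left) and of MAT2Ai against placebo in each genotype and averaged over genotypes (right). *Chl1* has 1.03 and 0.90 and *Pigz* −0.74 and −0.99 on the left, and *B3galnt1* has the largest averaged treatment difference on the right, −0.55 ± 0.10.

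The choice of the members fixes how many of them stand out between genotypes, so the following counts describe the set and nothing is read from them. Under placebo none of the 9 passed an adjusted p of 0.05 (edgeR), as did none of the 16152 genes (0.0%). An unadjusted p under 0.05 was reached by 606 genes (3.75%). DESeq2 called 7 genes and limma-voom 4. Under MAT2Ai, *Chl1*, *Prok1*, *Mpped1*, *Gpc1*, *Pigz* and *Fxyd5* passed, beside 298 genes in all (1.84%). Averaged over treatments, *Chl1*, *Mpped1*, *Reep6*, *Pigz* and *Fxyd5* passed, beside 215 genes in all (1.33%). *B3galnt1* and *Triqk* passed in none of these contrasts. Groups that did not overlap were found for 2 members under placebo (193 genes, 1.19%), for 5 under MAT2Ai (549 genes, 3.4%) and for none over both treatments together (6 genes, 0.0371%).

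These calls moved with single libraries. The 6 members called under MAT2Ai became 0 without SP MAT2Ai 2, 3 or 5, 2 without SP MAT2Ai 1 or WT MAT2Ai 2, and 3 without WT placebo 3 or 4, WT MAT2Ai 3, or SP placebo 2 or 3. The 5 members called over both treatments became 2 without SP placebo 3 or 4 and 3 without WT placebo 2 or SP MAT2Ai 5. Without both SP placebo 1 and 2, the 6 under MAT2Ai became 3 and the 5 over both treatments became 6.

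The second comparison asked how the members stood after MAT2Ai, averaged over genotypes. The stated choice did not use this contrast, and a test is given in it. However, *B3galnt1* passed in no contrast between genotypes, and the members were chosen with earlier results of these data known. A p given here is therefore not fully independent of the choice. *B3galnt1*, the globoside enzyme, fell by 0.55 ± 0.10 on the log2 scale, or 1.46-fold (edgeR quasi-likelihood, Benjamini-Hochberg adjusted p = 0.0138). It was 1 of 6 genes (0.0371%) that fell and 1 of 36 (0.223%) that passed. The difference was −0.61 ± 0.14 in WT (10.8 ± 1.49 to 7.08 ± 1.48 CPM, mean ± SD, n = 5) and −0.49 ± 0.14 in SP (9.02 ± 0.593 to 6.43 ± 1.09 CPM). The call held without each library in turn, at −0.60 to −0.50, and was lost without both SP placebo 1 and 2 (−0.53 ± 0.11, adjusted p = 0.0986).

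No other member passed. *Triqk* came next at −0.37 ± 0.09 (adjusted p = 0.0834), and its call depended on the setting. It passed with DESeq2 (adjusted p = 0.00415), with limma-voom (0.0234), without WT MAT2Ai 4 (0.0395) and without WT MAT2Ai 2, 3 and 4 (0.0186), and not in the other settings tried, among them without SP placebo 1 and 2 (−0.31 ± 0.09, adjusted p = 0.302). *Pigz* stood at −0.44 ± 0.14 (edgeR adjusted p = 0.214), and at −0.39 ± 0.16 (0.388) without SP placebo 1 and 2. The other 6 had differences of −0.18 ± 0.15 (*Chl1*) to 0.23 ± 0.14 (*Gpc1*), with adjusted p of 0.423 or more. For *Prok1*, at −0.06 ± 0.18, the sign turned to 0.06 ± 0.14 without WT MAT2Ai 2, 3 and 4, and for *Reep6*, at 0.12 ± 0.09, to −0.02 ± 0.09.

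The treatment values within each genotype are given as a description, since the gap between them equals the gap between the genotype differences that chose the genes. *Fxyd5* stood 0.32 ± 0.14 higher with MAT2Ai in WT and at −0.46 ± 0.14 in SP, an interaction (the SP value less the WT value) of −0.77 ± 0.20. *Prok1* had −0.50 ± 0.26 in WT and 0.38 ± 0.25 in SP, an interaction of 0.88 ± 0.36. *Gpc1* had −0.11 ± 0.19 and 0.57 ± 0.19, and *Reep6* −0.12 ± 0.13 and 0.37 ± 0.13, with interactions of 0.68 ± 0.27 and 0.49 ± 0.18. The interaction of *Mpped1* was 0.54 ± 0.31. For *B3galnt1*, *Triqk*, *Pigz* and *Chl1* the interaction was 0.12 ± 0.19, 0.08 ± 0.17, −0.26 ± 0.28 and −0.14 ± 0.31.

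The genes next to the members were examined too, since the choice used position only in relation to *Slc5a2*. Neighbours that differed between genotypes averaged over treatments lay near *Prok1*, *Pigz*, *Reep6* and *B3galnt1*. In that average *Cym* near *Prok1*, *Meltf* near *Pigz*, and *Fstl3* and *Cfd* near *Reep6* went the same way as the member. By treatment only *Cym* matched its member. The genotypes did not overlap under MAT2Ai only for *Prok1*, *Cym*, *Pigz* and *Fstl3*, and under placebo only for *Reep6* and *Meltf*. For *Cfd* they overlapped in both treatments. *Tfrc* near *Pigz* and *1110032F04Rik* near *B3galnt1* went the opposite way. Distances are gaps between the nearest ends of the genes. *Cym*, the gene for the milk-clotting protease chymosin, lies 11.1 kb from *Prok1* and was higher in SP by 0.66 ± 0.13 on the log2 scale (edgeR adjusted p = 0.0212), or 0.62 ± 0.14 (0.0423) without SP placebo 1 and 2. *Meltf*, which codes for the iron-binding membrane protein melanotransferrin, lies 34.8 kb from *Pigz* and was lower, with a log2 fold change of −1.75 ± 0.37 (adjusted p = 0.0308), or −2.09 ± 0.41 (0.0272) without SP placebo 1 and 2. The call of *Cym* was lost without SP placebo 3 or SP MAT2Ai 5 (adjusted p = 0.0512 in both), and that of *Meltf* without WT placebo 2 or 4, SP placebo 3 or 4, or SP MAT2Ai 2, 3 or 5 (0.0512 to 0.0764).

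*Cym* stood at 0.803 to 1.26 CPM in WT placebo, 0.887 to 1.26 in WT MAT2Ai, 1.05 to 1.70 in SP placebo and 1.43 to 2.37 CPM in SP MAT2Ai, so that SP and WT overlapped under placebo and not under MAT2Ai. *Meltf* stood at 1.16, 2.11, 1.03, 2.01 and 1.67 CPM in WT placebo and at 0.871, 0.746, 0.0937, 0.393 and 0.459 CPM in SP placebo. In MAT2Ai groups it ran from 0.462 to 2.33 CPM in WT and from 0.0456 to 0.489 CPM in SP. All SP placebo libraries of *Meltf* lay below all WT placebo libraries, SP placebo 1 and 2 included, although these were the highest of their group. Over 20 libraries, which share the 4 groups, *Meltf* and *Pigz* correlated at r = 0.694 and *Cym* and *Prok1* at 0.493. Once the group means were taken away, r was 0.196 and −0.0347.

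In all, 6 of 269 tested genes whose lower coordinate lies within 1 Mb of a member passed between SP and WT averaged over treatments (2.23%, against 1.33% of all genes). The other 4 were *Fstl3* (a follistatin-like binder of activin, −0.36 ± 0.09, adjusted p = 0.0479) and *Cfd* (the adipocyte protease adipsin, −4.40 ± 1.01, 0.0408) near *Reep6*, *Tfrc* (the transferrin receptor, 0.40 ± 0.10, 0.0496) 663 kb from *Pigz*, and *1110032F04Rik* (0.98 ± 0.23, 0.0408) 702 kb from *B3galnt1*. *Cfd* was at 0 in 4 of 20 libraries and at 5.11 CPM in WT MAT2Ai 3, and the adipocyte markers summed to 11.0 to 52.0 CPM, highest in WT MAT2Ai. Of these markers *Fabp4* alone ran from 11.0 to 46.7 CPM, while *Adipoq*, *Plin1* and *Cidec* reached at most 1.51, 1.78 and 1.98 CPM. Their part in the *Cfd* value was not tested. Without SP placebo 1 and 2, *Fstl3* (adjusted p = 0.0883) and *Cfd* (0.0572) no longer passed. The count stayed at 6, so neighbours not named here passed in their place. Of 20 fits that each left out 1 library, *Tfrc* did not pass in 14, *Fstl3* in 12, *Cfd* in 11 and *1110032F04Rik* in 10. *Tfrc* overlapped between genotypes in both treatments. *1110032F04Rik* overlapped under placebo, where SP placebo 4 reached 4.84 CPM, and was higher in SP under MAT2Ai without overlap. No tested gene had its lower coordinate within 1 Mb of *Chl1*, and none of the 8 near *Triqk*, 24 near *Gpc1*, 28 near *Mpped1* and 51 near *Fxyd5* passed. The count of 6 ran from 0 (without SP placebo 3 or SP MAT2Ai 5) to 15 (without WT MAT2Ai 4). For comparison, 7 of 200 tested genes within 10 Mb of *Slc5a2*, itself included, passed (3.5%).

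**Figure D3:**
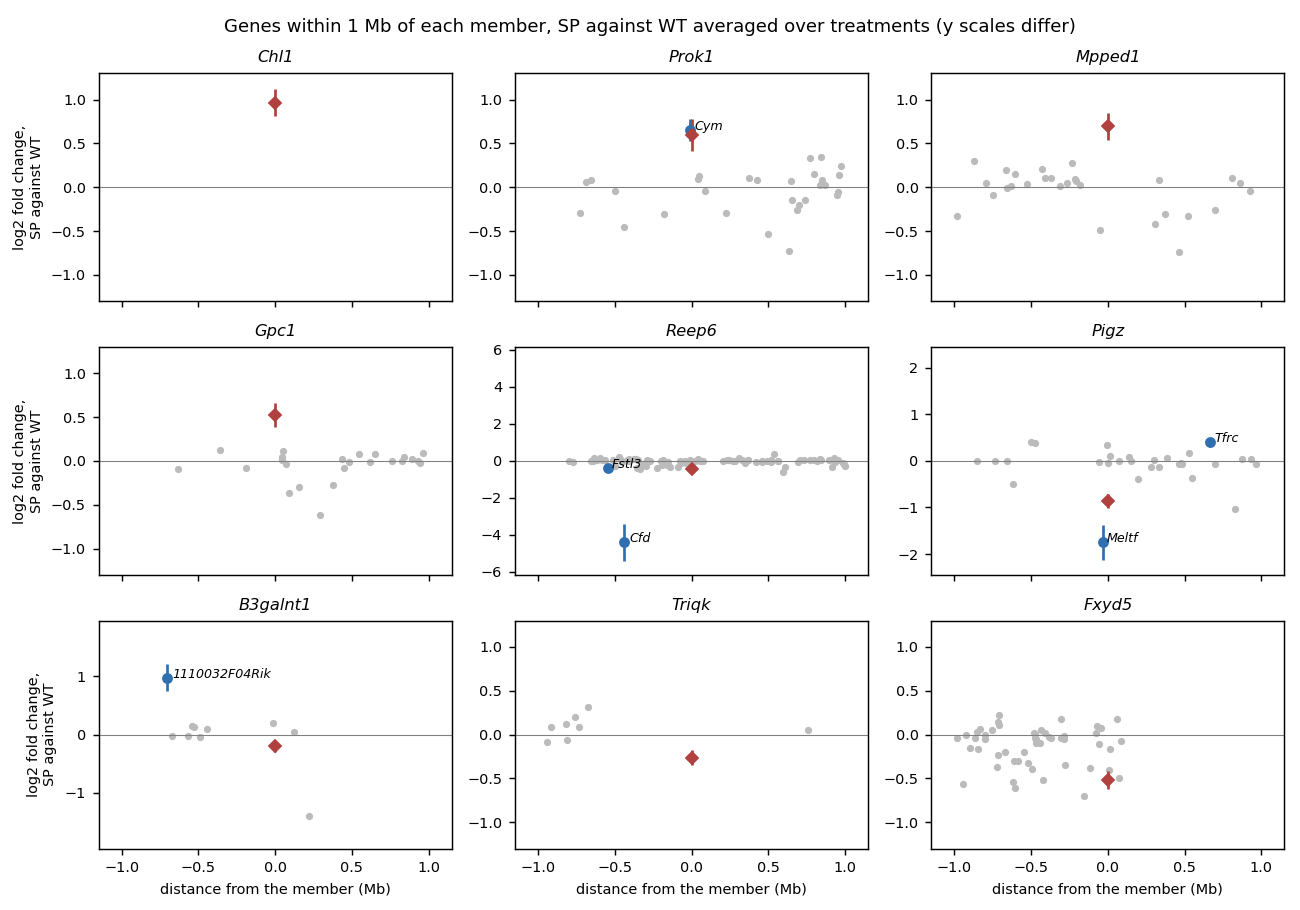
Log2 fold change of SP against WT, averaged over treatments, of all tested genes whose lower coordinate lies within 1 Mb of each member, by distance in Mb (diamond, the member; filled points with SE, genes at an adjusted p under 0.05; y scales differ). *Cym* beside *Prok1* (0.66) and *Meltf* beside *Pigz* (−1.75) lie close to their member, and the *Chl1* panel holds no gene but *Chl1*.

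The relatives and partners of the members were examined next. From 9 lists of the same families and pathways, chosen by function and not by how they moved, 105 of 116 genes were tested. Averaged over treatments, none was higher in SP and 2 were lower (1.9%, against 1.33% of all genes). The count was 12 with limma-voom and 1 to 6 without single libraries, so an absent call does not show that a gene was level. *Rtn1*, a reticulon that shapes the ER like *Reep6*, had a log2 fold change of −1.33 ± 0.31 (edgeR adjusted p = 0.0408), and *Atp1b2*, a beta subunit of the Na,K-ATPase that *Fxyd5* acts on, −0.50 ± 0.09 (0.0202). *Rtn1* reached 3.61 CPM in WT MAT2Ai against at most 0.729 CPM in any other group, and did not pass without SP placebo 1 and 2 (−1.33 ± 0.36, adjusted p = 0.0714) or without WT MAT2Ai 2, 3 and 4 (−0.73 ± 0.22, 0.0886).

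By role, none of 8 L1 family adhesion genes passed for *Chl1*, where *Nrp1* and *Ank3* were the most abundant per length at log2 fold changes of 0.01 ± 0.17 and −0.08 ± 0.07. The other prokineticin and both prokineticin receptors, the ligand and receptors that go with *Prok1*, had too few counts to be tested. None of 11 heparan sulfate proteoglycan cores passed for *Gpc1*. The most abundant, *Sdc4* and *Gpc4*, stood at −0.05 ± 0.12 and 0.17 ± 0.05. Of 23 genes of heparan sulfate synthesis none passed between genotypes, where *Hs6st1* and *B3gat3*, the most abundant, stood at 0.11 ± 0.06 and −0.02 ± 0.05. *Sulf2*, the sulfatase that trims heparan sulfate outside the cell, rose with MAT2Ai by 0.66 ± 0.10 on the log2 scale (adjusted p = 0.00479), a call that was lost without SP placebo 1 and 2 (0.63 ± 0.11, adjusted p = 0.0558). It stood at 16.4 to 19.9 CPM in WT placebo and 16.6 to 21.1 in SP placebo, and at 22.7 to 45.7 in WT MAT2Ai and 22.8 to 31.2 CPM in SP MAT2Ai. *Sulf2* thus did not overlap between treatments, where 13 genes (0.0805%) did not. None of 27 genes of GPI anchor synthesis passed beside *Pigz*, with *Pigq* at 0.15 ± 0.06 and *Dpm3* at −0.15 ± 0.06 the most abundant. None of 11 genes of glycosphingolipid metabolism passed beside *B3galnt1*, where *Gm2a* stood at 0.10 ± 0.05. *Atp1b1*, a beta subunit of the Na,K-ATPase, stood at 0.08 ± 0.05, and the abundant ER proteins *Arl6ip1* and *Rtn3* at 0.20 ± 0.07 and 0.05 ± 0.04. *Mpped2*, the paralogue of *Mpped1*, stood at 0.38 ± 0.11 (adjusted p = 0.0757).

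The members were compared with each other after each group's mean was taken away, which leaves the spread within groups that the choice did not use. Over 36 pairs r had a median of −0.104 and was positive in 15 pairs, with no direction shared by the 9 genes. *Reep6* and *Fxyd5* varied together most (r = 0.701), followed by *Pigz* and *B3galnt1* (0.643) and *Reep6* and *Triqk* (0.598), and *Gpc1* and *Reep6* had the lowest value (−0.517). These values and those with marker lists rest on the same 20 libraries and their depth. WT MAT2Ai 2, which stood apart on principal component 1 and had the lowest *Mpped1* (11.8 CPM), was kept. No r was computed without it. Each marker list was taken as the mean log2 CPM of its tested genes. *Mpped1* varied with proximal tubule S3 (0.877) and against tubular injury (−0.60). It also varied with principal cell (0.551) and thick ascending limb markers (0.509). *Fxyd5* varied with macrophages (0.831), and *Prok1* with proximal tubule S1 and S2 (0.586). *Fxyd5* also varied, less closely, with erythroid (0.597), lymphocyte (0.568) and fibroblast and smooth muscle markers (0.513). *Pigz* varied with podocyte markers (0.576), and *Triqk* with adipocyte markers (0.567) and against proximal tubule S1 and S2 (−0.547). *Reep6* varied against intercalated cell (−0.549) and *Gpc1* against macrophage markers (−0.513). For *Chl1* the largest value in size was −0.511, with markers of Schwann cells and nerve.

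**Figure D4:**
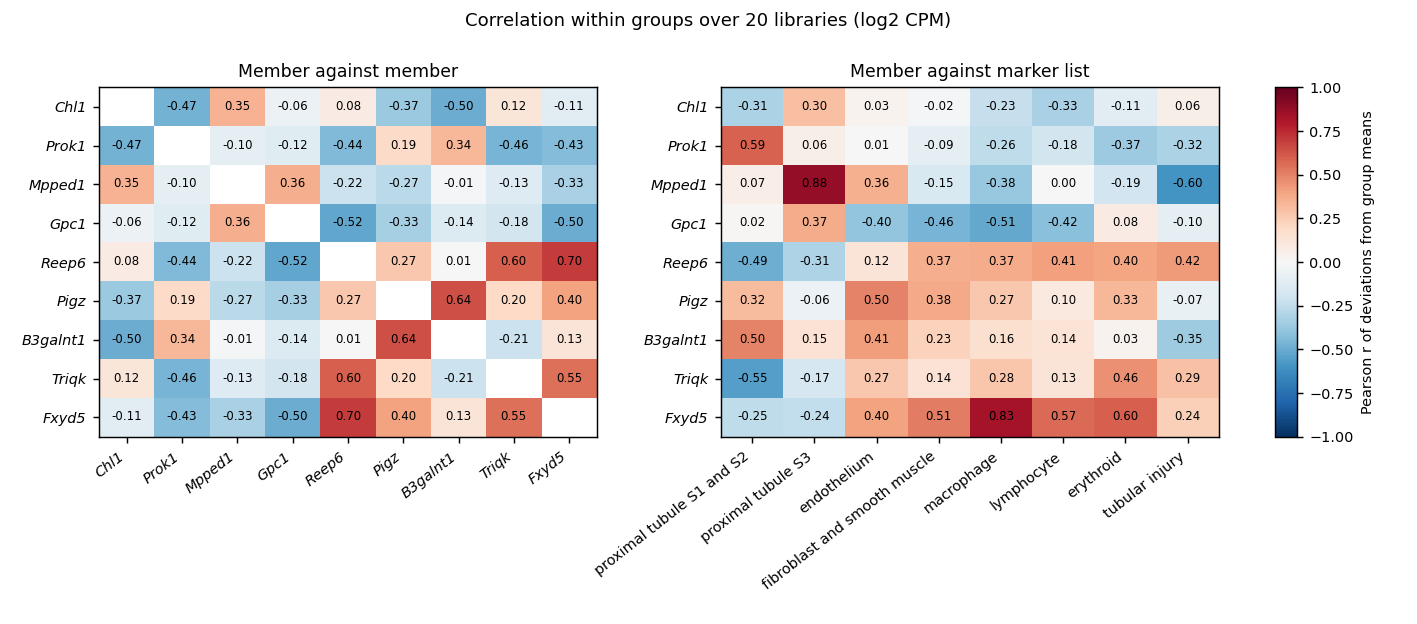
Pearson r over 20 libraries of log2 CPM after group means were taken away, from −1 (blue) to 1 (red). Members are set against each other (left) and against the mean log2 CPM of marker lists (right). Only some lists are drawn: proximal tubule S1 and S2, proximal tubule S3, endothelium, fibroblast and smooth muscle, macrophage, lymphocyte, erythroid and tubular injury. *Fxyd5* with macrophage markers (0.831) and *Mpped1* with S3 markers (0.877) stand out on the right.

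The genes whose level over all 20 libraries was most like that of each member, by Pearson r with group differences left in, also differed from member to member. *Chl1* was closest to the amino acid transporter *Slc6a15* (0.845), *Mtor* (0.831) and *Slc12a2* (0.827), and *Prok1* to *Sypl2* (0.888), *Mfhas1* (0.872) and *Fam102a* (0.870). *Mpped1* was closest to *Rhbdd2* (0.949), *Acsm3* (0.932) and *Mccc1* (0.930), the latter pair enzymes of mitochondrial metabolism. *Gpc1* was closest to *Cda* (0.828), *Timm50* (0.826) and *Syngr2* (0.813), and *Reep6* to *Ttc9* (0.803), *Wipf1* (0.787) and *Serp2* (0.787). *Pigz* was closest to *Cd1d1* (0.845), *Axl* (0.845) and *Slc5a2* itself (0.839), the only member with *Slc5a2* among its nearest 3. *B3galnt1* was closest to *Slc35f1* (0.894), *Cdpf1* (0.850) and *Marcks* (0.818), and *Triqk* to *Oaz1-ps* (0.786), *Ddc* (0.772) and *Gm4540* (0.771). *Fxyd5* was closest to *C1qb* (0.928), a complement chain made by macrophages, *Tgfb1* (0.918) and *Cmtm3* (0.909). Of these 27 genes, 7 were also among the nearest 3 by Spearman's rho.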

How the data were processed

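The authors extracted total RNA from kidney cortex, selected poly(A) RNA, made directional libraries and aligned trimmed reads to mm10 with STAR. They counted them with htseq against Ensembl annotation, and the deposited files hold these raw counts without scaling. The strand setting of the counting is not given in the sources used here. Symbols and coordinates came from GENCODE M21, matched by identifier for 42462 of 43430 genes. After filterByExpr and TMM scaling, the 20 libraries were fitted with edgeR 4.0.16 (quasi-likelihood, R 4.3.3), 1 coefficient per group, with Benjamini-Hochberg adjustment over 16152 genes. Alternatives used DESeq2 1.42.0, limma-voom (limma 3.58.1), other filters and scaling, a replicate block and left-out libraries. The script was tested on simulated data. Log2 CPM used a prior count of 2.

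The members, lists and tests were chosen with earlier results of these data known. Named besides the members are *Slc5a2*, the 3 genes most alike to each member, neighbours within 1 Mb that passed, and from each family list the genes that passed and the 2 most abundant per length. Some of the latter are not reported here. Samples were grouped by genotype and treatment in the labels.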

Additional observations from a re-analysis of the deposited data

How the results depend on the processing

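All values rest on 5 libraries per group, and *Chl1*, *Prok1* and *Pigz* on fewer than 300 counts per library. Members kept their direction between genotypes in every setting under placebo and over both treatments, and in 250 of 252 values under MAT2Ai, where *Reep6* and *Triqk* turned to 0.08 and 0.02 without WT MAT2Ai 2, 3 and 4. The cause was not tested here or for the values below.

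Genes called under placebo (0) became 7 with DESeq2, 4 with limma-voom and 1 without SP placebo 1 and 2, and members called (0) became 2 with DESeq2 and 2 with limma-voom. Under MAT2Ai the 298 genes became 1203 with DESeq2, 126 without SP placebo 1 and 2, 149 without WT MAT2Ai 2, 3 and 4, and 2 with only the compared groups. The 6 members became 3, 3 and 0 in the last 3. Over both treatments the 215 genes became 885 with DESeq2, 1341 with limma-voom and 461 without WT MAT2Ai 2, 3 and 4, and the 5 members became 8 with DESeq2. For MAT2Ai against placebo the 36 genes became 187, 70, 4 and 88 with DESeq2, with limma-voom, without SP placebo 1 and 2, and without WT MAT2Ai 2, 3 and 4, and the 1 member became 2, 2, 0 and 2. The 6 neighbours became 18 with DESeq2, 24 with limma-voom, 11 without WT MAT2Ai 2, 3 and 4, 3 within 0.5 Mb and 12 of 813 within 5 Mb. The 2 family genes became 5, 12 and 5 in the first 3 of these, and the 1 family gene that differed with MAT2Ai, *Sulf2*, became 0 without SP placebo 1 and 2.

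With a replicate block, genes called under MAT2Ai became 88 and members 3, genes over both treatments 114, neighbours 3 and family genes 1. The block changed no other count by over 1.5 times. The numbers were not taken to pair the mice, since deviations of same-numbered libraries correlated at −0.0158 on average over 30 pairs, 4 of them over 0.1, and the best match in another group carried the same number for 6 of 20 libraries.

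Leaving out each library in turn gave 0 to 1 genes under placebo, 0 to 774 genes and 0 to 6 members under MAT2Ai, 20 to 574 genes and 2 to 6 members over both treatments, and 20 to 77 genes and 1 to 2 members for MAT2Ai against placebo. Neighbours ran from 0 to 15 and family genes from 1 to 6. *Prok1*, at −0.06 with MAT2Ai, turned to 0.052 with limma-voom and 0.058 without WT MAT2Ai 2, 3 and 4, and ran from −0.18 to 0.032 without single libraries, at 0.0032 without WT MAT2Ai 2. *Reep6*, at 0.12, turned to −0.018 without WT MAT2Ai 2, 3 and 4.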
